A study of Homo sapiens with 6 samples.

Results

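The genes described here encode human leukocyte antigen (HLA) class I heavy chains, their shared light chain B2M, their transcriptional activator NLRC5 and the stress ligands MICA and MICB. The members are a list of 9 gene symbols (HLA-B, HLA-C, HLA-E, HLA-F, HLA-G, B2M, NLRC5, MICA and MICB), each matched to its primary-assembly Ensembl identifier. All 9 have a row among the 57736 Ensembl genes of the count table, and 8 passed the filter for testing. RNA was sequenced from PC3, a line of human prostate cancer cells that was derived from a metastasis in bone, in 3 samples that received an siRNA against Mic60 (siMic60) and 3 that received a control siRNA (siCTRL). Mic60, the product of IMMT, is a structural protein of the mitochondrial inner membrane. The series title names pancreatic ductal adenocarcinoma and the study's silencing experiments used pancreatic lines, whereas the labels of all 6 samples name PC3, which is followed here. The deposited labels also call the siMic60 samples Mic60 KO and the siCTRL samples Mic60 WT, and the siRNA names are used here. Every sample comes from the same cell line, and the sources used here do not give the siRNA dose or the treatment time of these libraries. Libraries were prepared with the QuantSeq 3′ kit, which reads polyadenylated transcripts near their 3′ end.

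HLA class I molecules carry peptides from inside the cell to its surface, where CD8 T cells read them. Each consists of a heavy chain, a peptide and the light chain β2-microglobulin, encoded by B2M, without which most heavy chains do not reach the surface. HLA-B and HLA-C are classical, highly polymorphic heavy chains. HLA-E, HLA-F and HLA-G are non-classical heavy chains with little polymorphism, and HLA-E is the ligand of the inhibitory receptor NKG2A on natural killer (NK) cells. NLRC5, a protein of the NOD-like receptor family, enters the nucleus and activates class I and B2M promoters together with the RFX, CREB/ATF and NF-Y factors. MICA and MICB resemble class I heavy chains but bind neither peptide nor β2-microglobulin. They are displayed by stressed cells and recognised by the activating receptor NKG2D.

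Class I and B2M promoters are known for a compact set of elements just before the start of transcription: a κB site, an interferon-stimulated response element (ISRE), a cAMP response element (CRE) type X2 box and a CCAAT Y box. RefSeq promoter windows of 300 bases (GRCh38.p14) were matched for 7 of the 9 members, HLA-B, HLA-C, HLA-F, HLA-G, B2M, MICA and MICB. The 140 bases from −180 to −41 relative to the annotated start are shown for B2M and for the 4 heavy chains with a window, of which HLA-G was not detected above a few counts. MICA and MICB are given by their matches only. Capitals mark every match, on either strand, to the ISRE core (GAAA, any 2 bases, GAAA), its shorter form GAANNGAAA, which lacks 1 base of the core and was searched separately, the CRE core TGACG, the Y box CCAAT or the κB consensus.
HLA-B (chr6:31357220-31357359, minus strand): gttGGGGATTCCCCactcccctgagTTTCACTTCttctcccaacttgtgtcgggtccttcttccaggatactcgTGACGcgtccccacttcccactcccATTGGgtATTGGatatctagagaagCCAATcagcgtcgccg
HLA-C (chr6:31272133-31272272, minus strand): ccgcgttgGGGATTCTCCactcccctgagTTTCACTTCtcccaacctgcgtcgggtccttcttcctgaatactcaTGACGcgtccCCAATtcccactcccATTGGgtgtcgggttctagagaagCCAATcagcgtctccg
HLA-F (chr6:29723254-29723393, plus strand): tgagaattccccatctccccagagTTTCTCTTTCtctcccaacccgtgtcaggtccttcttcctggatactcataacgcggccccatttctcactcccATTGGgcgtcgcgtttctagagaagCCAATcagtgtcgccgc
HLA-G (chr6:29827645-29827784, plus strand): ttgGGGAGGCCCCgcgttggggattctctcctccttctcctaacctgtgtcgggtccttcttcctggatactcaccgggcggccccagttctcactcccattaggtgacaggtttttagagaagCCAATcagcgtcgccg
B2M (chr15:44711337-44711476, plus strand): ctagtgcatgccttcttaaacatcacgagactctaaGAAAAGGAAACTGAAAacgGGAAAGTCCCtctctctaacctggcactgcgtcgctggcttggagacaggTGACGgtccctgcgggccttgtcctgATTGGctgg

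The ISRE core was matched in the B2M window, by overlapping matches at −144 to −135 and −138 to −129, and in the HLA-F window at −156 to −147. Its shorter form was matched in HLA-B at −155 to −147, in HLA-C at −151 to −143, in MICA at −131 to −123 and in MICB at −135 to −127. Neither form was matched in the windows of HLA-G, for which RefSeq lists 3 starts, of which the third is the one shown. Over all 35116 windows of the table, 3.57% held the ISRE core and 7.66% its shorter form. The CRE core was matched in HLA-B, HLA-C and B2M, and in 24.6% of all windows. The Y box was matched in each of the 7 genes, 3 times in HLA-B and 4 times in HLA-C (1 of them at −192, before the stretch shown), and in 34.6% of all windows. The κB consensus was matched in HLA-B, HLA-C, HLA-G and B2M, and in 11.3% of all windows. In HLA-G the Y box and the κB consensus were matched only in the window shown, whereas the percentages are per window. A match describes the letters of the reference genome and does not show that a factor was bound in these cells.

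**Figure D1:**
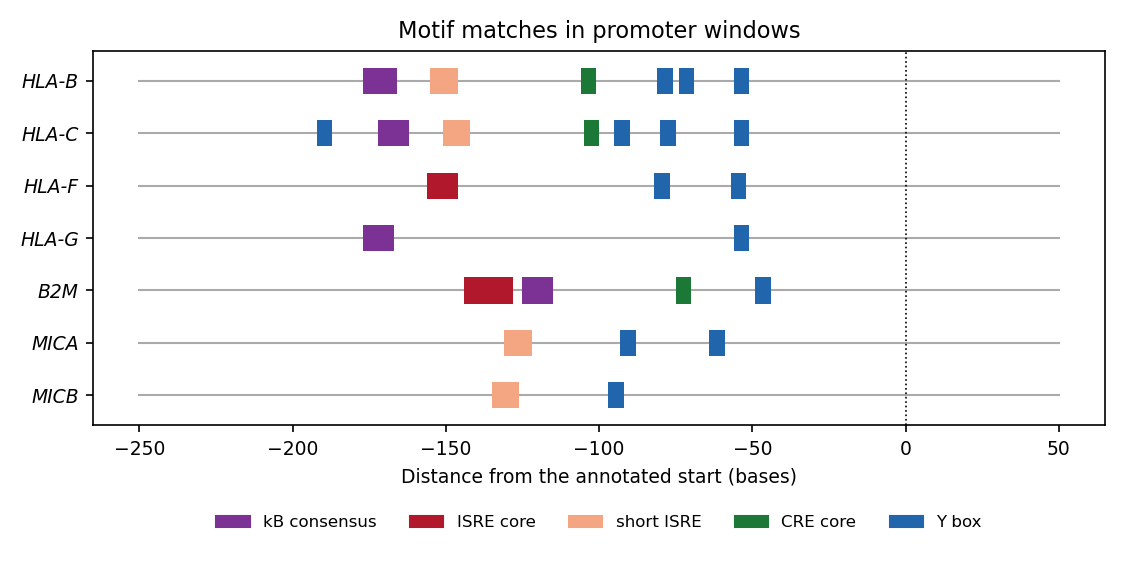
Position of motif matches (coloured boxes) in the promoter windows of 7 members, one row per gene, with distance from the annotated start in bases on the horizontal axis. An ISRE match, core or short form, lies between −156 and −123 in HLA-B, HLA-C, HLA-F, B2M, MICA and MICB, and the HLA-G row has none.

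Depth was similar in both groups. Total counts were 6644495 to 8779877 in the siMic60 libraries and 7714837 to 8396244 in the siCTRL libraries, and the test covered the 14653 genes that reached 10 counts in 3 or more libraries. IMMT, the silenced gene, was at 7.22 ± 1.35 CPM (counts scaled to a common library size after TMM normalization) in siMic60 and 89.9 ± 1.13 CPM in siCTRL cells (SD, n = 3 each), with a log2 fold change of −3.62 (edgeR adjusted p = 4.38e-10). The epithelial keratins KRT8, KRT18 and KRT19 were each above 100 CPM in every library, although of 5 listed epithelial markers KRT8 rose, 3 fell and 1 was without a call. Of 9 T, NK and B cell markers, 7 had no count in any library, CD3E and NKG7 among them, and the list summed to between 0.611 and 0.918 CPM in siMic60 and between 0.717 and 1.37 CPM in siCTRL libraries. Of 6 macrophage and dendritic cell markers, 3 had no count, and the list summed to between 0.115 and 0.977 CPM in siMic60 and between 0.749 and 1.23 CPM in siCTRL libraries. Of 4 fibroblast and endothelial markers with a row, DCN and VWF had no count, and COL1A1 was at 57.3 ± 10.1 CPM in siMic60 and 308 ± 53.1 CPM in siCTRL cells (SD, n = 3 each). Without COL1A1, the 18 markers of other cell types with a row summed to between 0.920 and 1.71 CPM in siMic60 and between 2.12 and 2.46 CPM in siCTRL libraries, a sum added after the data were seen. The study's methods state in general that data come from independent biological replicates, but they do not describe these libraries, and the labels only number them, so each p-value rests on library-to-library variation that may be technical. In bulk RNA, fewer cells that express a gene and less RNA of it per cell cannot be told apart.

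Of the 8 tested members, 7 rose in siMic60 cells (HLA-B, HLA-C, HLA-E, HLA-F, B2M, NLRC5 and MICB), none fell and MICA did not pass the test. Over all genes tested, 17.7% rose at the same threshold (edgeR's quasi-likelihood test, Benjamini-Hochberg adjusted p under 0.05) and 17.8% fell, 35.5% in all. In the same 7 genes every siMic60 library lay above every siCTRL library, which was so for 23.7% of all genes tested, and the reverse held for 24.1%, so that 47.9% had groups that did not overlap. The median log2 fold change was 2.34 over the 8 members and 0.0026 over all genes tested. Among the 2588 genes that rose, ranked by fold, NLRC5 was at 16, HLA-F at 30, HLA-B at 66, HLA-C at 83, HLA-E at 234, B2M at 241 and MICB at 1663. NLRC5 reached the count needed for testing only in the siMic60 libraries. Its place among the tested members, in the median and in the ranking therefore depended on its level there.

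**Figure D2:**
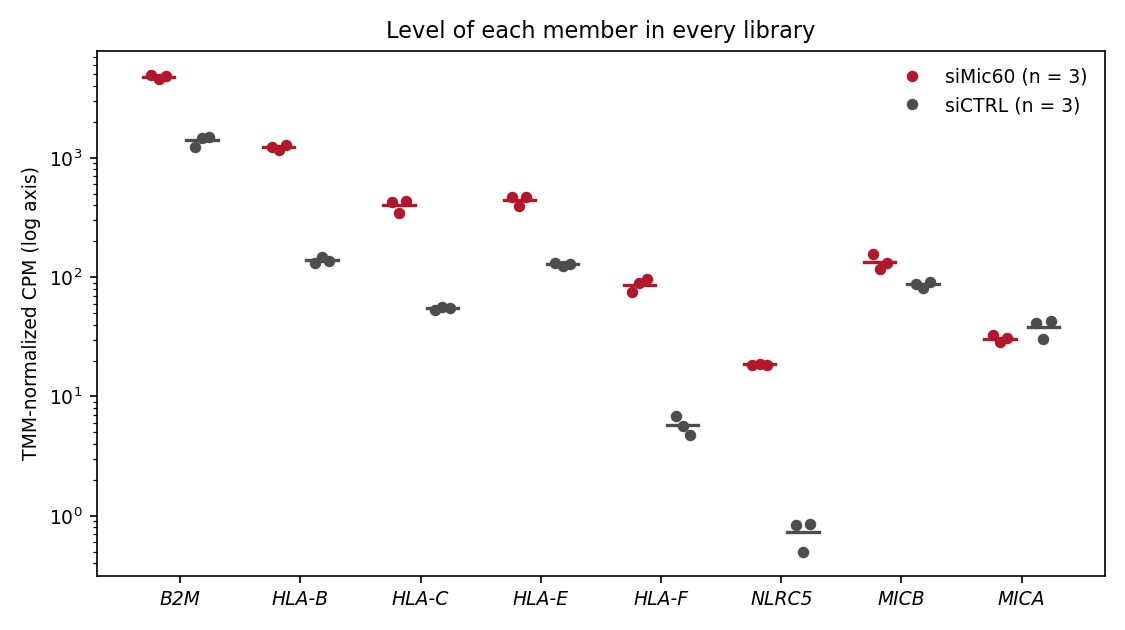
TMM-normalized CPM on a log axis for the 8 tested members, with 1 point for each of the 3 siMic60 (red) and 3 siCTRL (grey) libraries and a line at each mean. The groups do not overlap for any gene except MICA, and NLRC5 is under 1 CPM in all siCTRL libraries.

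HLA-B (ENSG00000234745) had the highest level of the listed heavy chains in siMic60 cells. It was at 1245, 1158 and 1293 CPM in the siMic60 libraries and at 130.5, 148 and 137 CPM in the siCTRL libraries. The lowest siMic60 library was far above the highest siCTRL library, and the rise was 8.90-fold (95% interval 7.51 to 10.5, log2 fold change 3.15, standard error 0.11, edgeR adjusted p = 1.03e-10). HLA-C (ENSG00000204525), the main ligand of the killer-cell immunoglobulin-like receptors of NK cells, was at 429, 348 and 436 CPM in siMic60 and at 53.2, 56.8 and 54.7 CPM in siCTRL libraries. Here the siCTRL libraries lay close together while siMic60 replicate 2 was below the other siMic60 libraries, and the rise was 7.37-fold (95% interval 6.09 to 8.91, edgeR adjusted p = 5.49e-10). The intervals of HLA-B and HLA-C overlap.

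The non-classical heavy chains fell into 3 patterns. HLA-E (ENSG00000204592) was at 469.6, 395 and 468 CPM in siMic60 and at 131, 124 and 129 CPM in siCTRL libraries. It rose 3.48-fold (95% interval 2.93 to 4.13, edgeR adjusted p = 2.46e-08), and its interval lay below those of HLA-B and HLA-C, a difference that was examined only through the ratios to B2M given below. Its siCTRL level was near that of HLA-B, but its siMic60 level was near that of HLA-C. HLA-F (ENSG00000204642), which can be displayed without peptide and is bound by NK cell receptors, was at 74.8, 89.0 and 95.9 CPM in siMic60 and at 6.82, 5.62 and 4.79 CPM in siCTRL libraries. Its rise of 15.0-fold (95% interval 11.7 to 19.3, log2 fold change 3.91, standard error 0.17, edgeR adjusted p = 4.69e-10) was the largest of the heavy chains, with an interval above those of the other 3 tested. HLA-G (ENSG00000204632), known from the placental trophoblast, had 1, 0 and 2 counts in siMic60 and no count in the 3 siCTRL libraries. Over the siCTRL group a count of 0 allows up to 0.125 CPM (3 counts, for counting error only), so that no change of HLA-G was detectable at this depth.

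An antisense gene overlaps the HLA-F locus, HLA-F-AS1, which was looked at after the HLA-F values were seen. It had 34, 68 and 63 counts in siMic60 and 88, 85 and 83 counts in siCTRL libraries, with a log2 fold change of −0.58 (edgeR adjusted p = 0.0528). The sources used here do not give the strand setting of the counting, so sense and antisense reads of this locus may not be fully separated. The fitted change of the antisense gene had the opposite sign to that of HLA-F.

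Heavy chain genes are close relatives, and counting can assign a read of one to another. To look for identical stretches at their 3′ ends, the last 300 bases of each member's longest protein-coding transcript in GENCODE 29 were used. Each end was cut into 251 words of 50 bases, which were looked up in the transcripts of every other gene. None of these words was shared with another gene for HLA-B, HLA-C, HLA-E, HLA-G, B2M, NLRC5, MICA or MICB, and 3 of the 251 were shared for HLA-F. None was shared between members. Only identical words were counted, so ends that differ at scattered single bases can be alike without sharing any. The alleles that PC3 cells carry, the transcript ends that they use and the read length can differ from this reference comparison, so the values of single heavy chains stay uncertain to that extent. Pseudogenes of the family, to which reads could also be lost, held few counts. Of 15 listed class I and MIC pseudogenes and locus RNAs with a row, 10 had no count in any library. HLA-H had 16 counts over the siMic60 and 1 over the siCTRL libraries, and HLA-L had 38 and 18. The pseudogene HLA-V rose 2.25-fold (edgeR adjusted p = 0.0219), with 39, 33 and 83 counts in siMic60 and 19, 34 and 18 counts in siCTRL libraries, so that its groups overlapped. That call was lost without siMic60 replicate 3 (log2 fold change 0.77, edgeR adjusted p = 0.157), without siCTRL replicate 1 (1.02, edgeR adjusted p = 0.0699) and without siCTRL replicate 3 (1.01, edgeR adjusted p = 0.0742). HCP5, a noncoding RNA of the class I region, rose 2.99-fold, at 6.62 ± 1.02 CPM in siMic60 and 2.20 ± 0.32 CPM in siCTRL libraries (SD, n = 3 each, edgeR adjusted p = 7.51e-04).

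The summed count of HLA-B, HLA-C, HLA-E, HLA-F and HLA-G does not depend on how reads were divided among these 5 genes. It was at 2219, 1991 and 2294 CPM in siMic60 and at 321, 335 and 325 CPM in siCTRL libraries. All siMic60 libraries were higher, and the difference was 2.73 on the log2 scale, or 6.62-fold (two-sided exact permutation test over libraries, p = 0.1, below which this design cannot go). The sum covers only the 5 listed genes and is not the total of class I heavy chain mRNA. Its composition differed between the groups. HLA-B made up 56.9 ± 1.13% of the summed counts in siMic60 and 42.3 ± 1.88% in siCTRL libraries, and HLA-E 20.5 ± 0.66% in siMic60 and 39.1 ± 1.89% in siCTRL libraries (SD, n = 3 each). HLA-C was at 18.6 ± 0.99% in siMic60 and 16.8 ± 0.21% in siCTRL libraries, and HLA-F at 4.01 ± 0.57% in siMic60 and 1.76 ± 0.33% in siCTRL libraries. The largest shift was thus a larger share of HLA-B and a smaller share of HLA-E, although HLA-E itself rose.

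B2M (ENSG00000166710) was the most abundant member in both groups. It was at 4988, 4559 and 4861 CPM in siMic60 and at 1229, 1472 and 1503 CPM in siCTRL libraries. The groups were well apart, with a rise of 3.43-fold (95% interval 2.92 to 4.02, log2 fold change 1.78, standard error 0.11, edgeR adjusted p = 1.38e-08). The ratio of heavy chain to B2M counts was compared within each library, a value that does not depend on the scaling of libraries. Counts of the 5 listed heavy chains per B2M count were 0.445, 0.437 and 0.472 in siMic60 and 0.261, 0.227 and 0.216 in siCTRL libraries, a 1.93-fold difference. All 3 siMic60 libraries were above all 3 siCTRL libraries (two-sided exact permutation test, p = 0.1, adjusted p = 0.12 over 6 ratios compared).

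Single heavy chains differed in this respect, in ratios that were added after the values were seen. HLA-B per B2M count was 2.59-fold higher, HLA-C 2.13-fold higher and HLA-F 4.41-fold higher in siMic60 than in siCTRL libraries, without overlap of the groups (exact permutation p = 0.1 and adjusted p = 0.12 for each). HLA-E per B2M count was 0.0941, 0.0867 and 0.0963 in siMic60 and 0.106, 0.0842 and 0.0855 in siCTRL libraries. These values overlapped, and the mean difference was 0.012 on the log2 scale (exact permutation p = 0.9, adjusted p = 0.9), between groups whose SD was 0.080 in siMic60 and 0.19 in siCTRL libraries. With 3 libraries a group, this does not show that HLA-E and B2M responded alike.

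**Figure D3:**
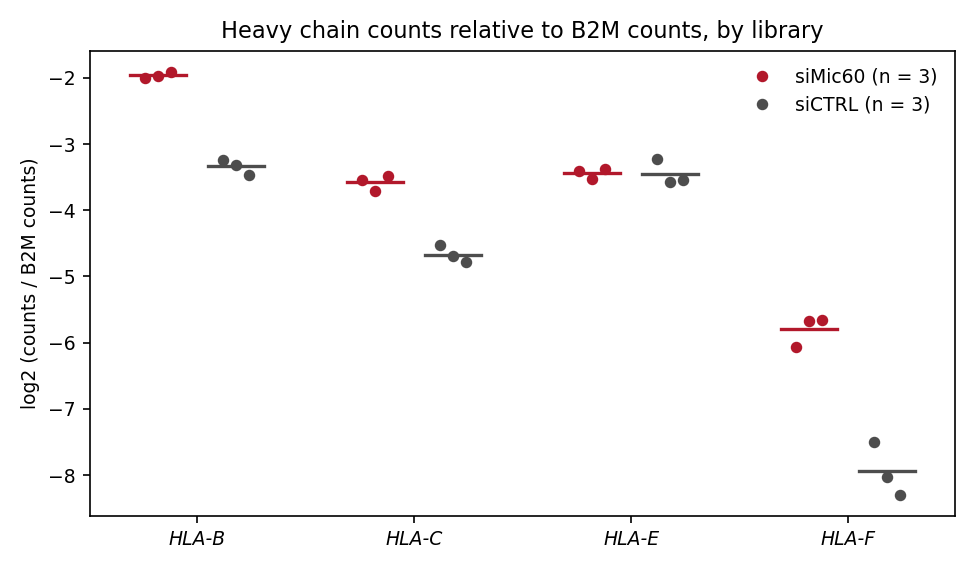
Counts of HLA-B, HLA-C, HLA-E and HLA-F divided by the B2M counts of the same library, on a log2 scale, with 1 point per library (siMic60 red, siCTRL grey, n = 3 each) and a line at each mean. The siMic60 points lie above the siCTRL points for HLA-B, HLA-C and HLA-F and overlap with them for HLA-E.

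**Figure D4:**
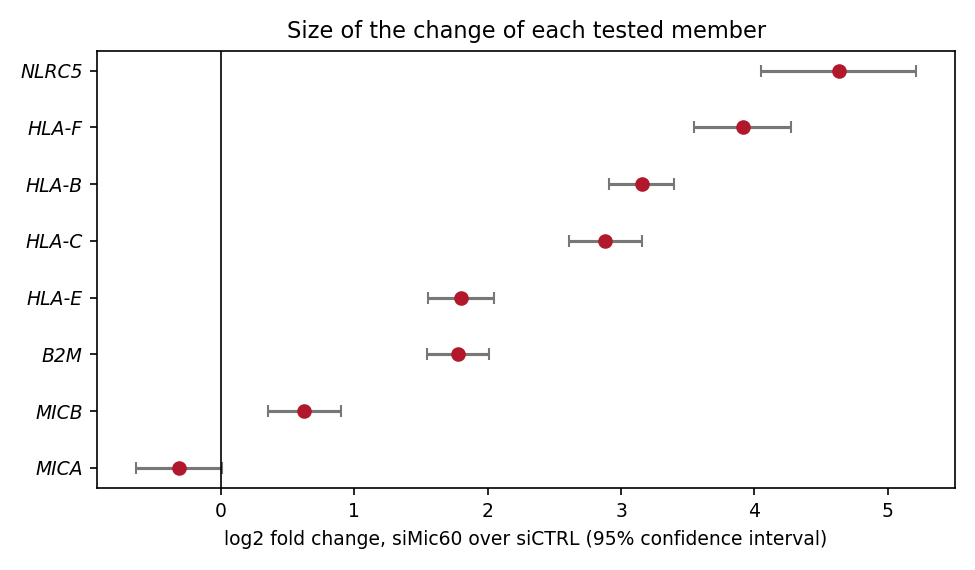
Log2 fold change of siMic60 over siCTRL cells for the 8 tested members, with 95% confidence intervals from edgeR (n = 3 libraries each). NLRC5, HLA-F, HLA-B and HLA-C lie above HLA-E and B2M, MICB is at 0.62, and the interval of MICA reaches 0.

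NLRC5 (ENSG00000140853) had the largest fold of the members and the lowest level of those tested. It had 120, 154 and 161 counts in siMic60 and 7, 4 and 7 counts in siCTRL libraries, or 18.4, 18.8 and 18.5 CPM in siMic60 and 0.837, 0.499 and 0.860 CPM in siCTRL libraries. The siMic60 libraries were within 1 CPM of each other, and the rise was 24.8-fold (95% interval 16.6 to 37.0, log2 fold change 4.63, standard error 0.27, edgeR adjusted p = 9.94e-09). The fold rests on 18 counts over the siCTRL libraries, and under the alternatives its log2 fold change ran between 4.28 and 4.76. Every siCTRL library was below the count needed for testing, so NLRC5 was tested through its siMic60 level. With no minimum count its log2 fold change was 4.64.

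Of 14 listed factors that act on class I promoters, all 14 were tested, 8 rose, against 17.7% of all genes tested, none fell and 6 did not pass. This list too was chosen with earlier results of these data known, so the comparison only describes it. STAT2, a transducer of type I interferon signals, was at 215, 208 and 271 CPM in siMic60 and at 82.1, 61.6 and 59.6 CPM in siCTRL libraries, a rise of 3.41-fold without overlap of the groups (edgeR adjusted p = 5.34e-07). IRF9, its partner in ISRE binding, rose 2.38-fold (edgeR adjusted p = 2.87e-05). IRF2 rose 3.23-fold and IRF1, an activator of NLRC5 and class I genes, rose 2.45-fold, at 164 ± 19.8 CPM in siMic60 and 67.0 ± 5.23 CPM in siCTRL libraries (SD, n = 3 each). The NF-κB subunits changed less, with RELA at 1.47-fold and NFKB1 at 1.31-fold. The NFKB1 call was lost with library totals in place of TMM (log2 fold change 0.33, edgeR adjusted p = 0.0662) and without any of 4 of the 6 libraries (log2 fold change 0.34 to 0.39). Among the factors that NLRC5 works with, RFXAP rose 2.22-fold and NFYA 1.41-fold. Both calls were lost without siMic60 replicate 3 (adjusted p = 0.0694 for RFXAP and 0.0995 for NFYA in edgeR), and that of NFYA also without siCTRL replicate 2 (edgeR adjusted p = 0.0675). RFX5, RFXANK, NFYB, NFYC, CREB1 and ATF1 had log2 fold changes between −0.39 and 0.28 that did not pass the test.

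MICB (ENSG00000204516) was at 156, 116 and 132 CPM in siMic60 and at 87.8, 81.7 and 91.9 CPM in siCTRL libraries. The groups did not overlap, and the rise was 1.54-fold (95% interval 1.27 to 1.87, log2 fold change 0.62, standard error 0.13, edgeR adjusted p = 0.00167). MICA (ENSG00000204520) was at 32.6, 28.6 and 30.7 CPM in siMic60 and at 41.0, 30.2 and 42.8 CPM in siCTRL libraries. Its groups overlapped through siCTRL replicate 2, and its log2 fold change was −0.31 (standard error 0.15, 95% interval of the fold 0.644 to 1.01, edgeR adjusted p = 0.122). Without siCTRL replicate 2, MICA passed the test as lower (log2 fold change −0.45, edgeR adjusted p = 0.0383), and its adjusted p ran between 0.0383 and 0.367 over the alternatives. MICB counts per MICA count were 4.77, 4.07 and 4.28 in siMic60 and 2.14, 2.71 and 2.15 in siCTRL libraries. This ratio, also added after the values were seen, was 1.88-fold higher, without overlap of the groups (exact permutation p = 0.1, adjusted p = 0.12).

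The other NKG2D ligands were sparse. Of 6 listed genes of the ULBP and RAET1 family, 3 were tested and none passed (ULBP1, ULBP2 and RAET1G, with log2 fold changes of 0.21, 0.62 and −0.20, and adjusted p of 0.553, 0.153 and 0.755 in edgeR). ULBP1 was at 5.51, 8.06 and 7.13 CPM in siMic60 and at 5.74, 6.99 and 5.28 CPM in siCTRL libraries, so the groups overlapped. ULBP3 had no count in any library.

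Of 14 listed genes that supply peptides or load them onto class I molecules, all 14 were tested and 11 rose, against 17.7% of all genes tested. None fell, and PSMB10, TAPBP and CANX did not pass, with log2 fold changes of 0.30, 0.30 and 0.28. The median log2 fold change of the list was 1.07. TAPBPL, which is among the genes that rose, reached the count needed for testing only in the siMic60 libraries. It had 20, 36 and 19 counts in siMic60 and 6, 9 and 6 counts in siCTRL libraries. PSMB9, a catalytic subunit of the immunoproteasome, was at 171, 149 and 170.0 CPM in siMic60 and at 20.4, 18.2 and 19.0 CPM in siCTRL libraries, a rise of 8.48-fold (edgeR adjusted p = 4.38e-10). TAP1 and TAP2 form the pump that moves peptides into the endoplasmic reticulum. TAP1 rose 5.84-fold and averaged 245 ± 10.6 CPM in siMic60 and 41.9 ± 2.89 CPM in siCTRL libraries, and TAP2 rose 4.07-fold and averaged 309.7 ± 15.5 CPM in siMic60 and 76.0 ± 12.8 CPM in siCTRL libraries (SD, n = 3 each). PSMB8, another immunoproteasome subunit, rose 2.84-fold (edgeR adjusted p = 5.53e-07).

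**Figure D5:**
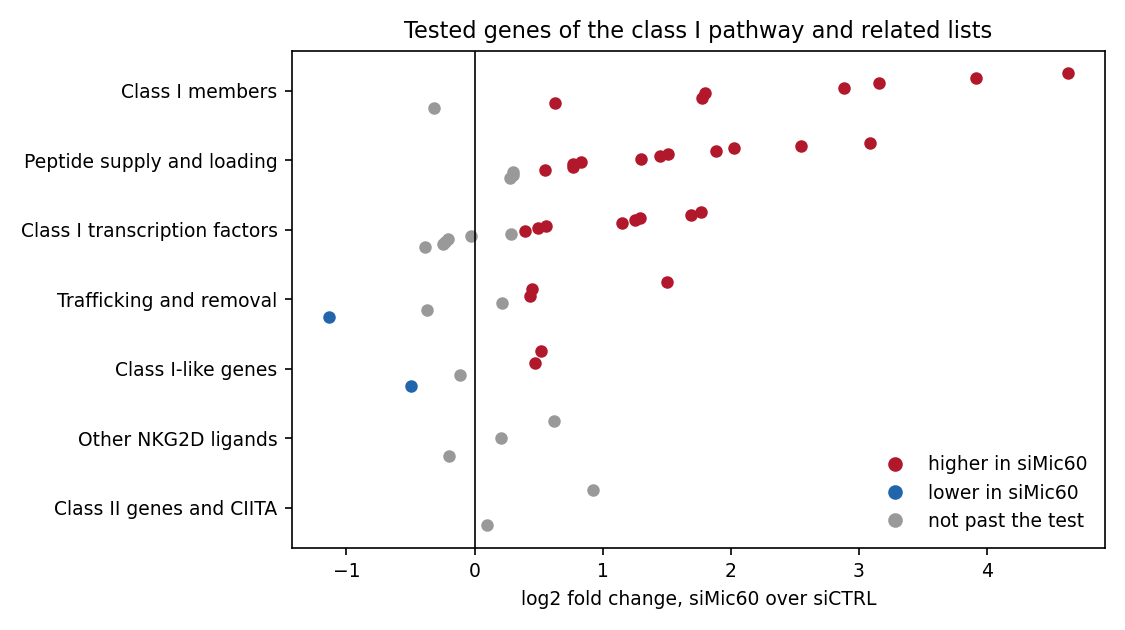
Log2 fold change of siMic60 over siCTRL cells for the tested genes of the 9 members and 6 related lists, 1 point per gene, red where higher, blue where lower and grey where the test was not passed. Points of peptide supply and loading lie at 0.28 to 3.08, whereas the 2 tested class II genes are grey.

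Class II genes, which professional antigen-presenting cells use, were near the limit of detection in both groups. Of 13 listed genes, 2 were tested, HLA-DMA and CD74, and neither passed (edgeR adjusted p = 0.220 and 0.905). HLA-DRA, a defining class II gene, had no count in the siMic60 libraries and 2 in the siCTRL libraries. CIITA, the activator of class II genes and a relative of NLRC5, had 4, 4 and 5 counts in siMic60 and 1, 1 and 3 counts in siCTRL libraries, which is too few for the test. The whole list summed to between 4.26 and 5.81 CPM in siMic60 and between 2.62 and 3.47 CPM in siCTRL libraries. This sum was higher in every siMic60 library, but it rests on 110 counts in siMic60 and 74 in siCTRL libraries and was not tested.

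A search was made for genes whose pattern over the 6 libraries was most like that of a member. Likeness was the root mean square difference of log2 CPM, each gene centred on its own mean. The search covered 13530 tested genes with a symbol, and the members themselves were left out of it. Closest to HLA-B were PSMB9 (0.11 log2 units), DDX60L (0.12) and RIGI (0.14). Closest to NLRC5 were MX2 (0.24), IFIT3 (0.26) and CMPK2 (0.28), all known as interferon-induced genes. Closest to B2M were CALB1 (0.039), SUCLG2 (0.059) and BLZF1 (0.098). The measure is set mainly by the difference between the groups, and it describes likeness over 6 libraries only.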

How the data were processed

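Polyadenylated RNA of PC3 cells (3 siMic60 and 3 siCTRL samples) was sequenced from QuantSeq 3′ libraries. The authors deposited counts per Ensembl gene, 1 column per library and without normalization. RSEM 1.2.3, DESeq2 and hg19 (GRCh37) appear in the submitters' processing notes, so the whole numbers may be rounded estimates. The sources used here name no aligner, annotation, filter or strand setting. Gene symbols came from a table of current names and GENCODE 29, and because the builds differ, coordinates are given only for RefSeq promoter sequences (GRCh38.p14).

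The test over all genes was edgeR's quasi-likelihood test (edgeR 4.0.16, R 4.3.3) with TMM normalization, for genes with 10 or more counts in 3 or more libraries, with Benjamini-Hochberg adjusted p under 0.05. Standard errors were worked back from the log2 fold change and the test statistic of the same test, and 95% intervals from these errors. They are approximate and may be too narrow where a group holds few counts. Sums and ratios were compared with exact permutation tests over libraries. Alternatives were DESeq2 1.42.0, limma-trend (limma 3.58.1, prior count 2), DESeq2's size factors, library totals, no minimum count, a minimum of 50, the replicate number as a block, and leaving out each library in turn on the same tested genes. The edgeR step was tested on simulated data.

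Members and lists were chosen with earlier results of these data known. Named genes are the 9 members, IMMT, from each list the 4 called genes with the smallest adjusted p, the called class I transcription factors, and the 3 genes most like HLA-B, B2M and NLRC5. HLA-F-AS1, TAPBPL and genes given as not passing or as markers were added after their values were seen. Some genes of the pathway, including 1 of the factor list as first set, are not reported here and are in no list count or sum.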

Additional observations from a re-analysis of the deposited data

How the results depend on the processing

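The 7 members called higher were called higher under all 13 alternatives. Leaving out 1 library, the number of members called lower ran between 0 and 1, the 1 being MICA without siCTRL replicate 2, and the MICA log2 fold change ran between −0.45 and −0.22. Over all genes, 2122 to 2791 rose and 2103 to 2999 fell under the alternatives, against 2588 and 2614. The replicate block gave 2387 and 2378 and changed no call of a member. Same-numbered libraries did not deviate together (Pearson's r over genes −0.10, −0.031 and 0.029), so the numbers were not taken to pair the samples. With the block, the summed heavy chain difference stayed at 2.73 and the ratio to B2M at 0.95 on the log2 scale (exact sign-flip p = 0.25 for each, the smallest it allows). Under the other settings the sum ran between 2.67 and 2.79, and the ratio between 0.89 and 1.02. SPPL2A lost its call under 11 of 13 alternatives. Depth limits HLA-G, class II genes and interferon ligands, which hold too few counts for a test or for a firm fold.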

Other observations

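Of 6 listed genes that traffic or remove class I and MIC proteins, all were tested, 3 rose and 1 fell. Over all genes tested, 17.7% rose and 17.8% fell, and so few genes do not set this list apart. MARCHF9, a membrane ubiquitin ligase known to take class I molecules from the surface, was at 17.3, 20.6 and 17.8 CPM in siMic60 and at 47.2, 33.4 and 42.0 CPM in siCTRL libraries (log2 fold change −1.14, standard error 0.16, edgeR adjusted p = 6.16e-05). Its relative MARCHF4 went the other way, at 4.74, 7.20 and 6.10 CPM in siMic60 and at 1.91, 2.50 and 1.97 CPM in siCTRL libraries, a rise of 2.83-fold (edgeR adjusted p = 0.00153). PDIA6, a disulfide isomerase that takes part in the shedding of MICA, rose 1.35-fold (edgeR adjusted p = 0.00654) and SPPL2A, an intramembrane protease, rose 1.36-fold (edgeR adjusted p = 0.0472), a call lost under most alternatives. The sheddases ADAM10 and ADAM17 had log2 fold changes of −0.37 and 0.21 that did not pass.

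Of 6 listed class I-like genes outside the HLA names, 4 were tested, 2 rose and 1 fell. The shares over all genes tested were 17.7% and 17.8%, and 4 genes are too few to differ from them. MR1, which presents microbial metabolites to T cells, rose 1.43-fold (edgeR adjusted p = 0.0276) and PROCR, the endothelial protein C receptor, rose 1.39-fold (edgeR adjusted p = 0.0250). FCGRT, the neonatal Fc receptor and a B2M partner, was at 55.9 ± 3.78 CPM in siMic60 and 78.8 ± 17.9 CPM in siCTRL cells (SD, n = 3 each; log2 fold change −0.49, edgeR adjusted p = 0.0190). Each of these 3 calls was lost on leaving out certain single libraries, with edgeR adjusted p up to 0.125 for MR1, 0.124 for PROCR and 0.0991 for FCGRT.

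Of 5 listed interferon ligand genes, IFNL1 alone was tested, and it rose (log2 fold change 3.16, standard error 0.49, edgeR adjusted p = 1.77e-04). It had 25, 37 and 26 counts in siMic60 and 5, 4 and 1 counts in siCTRL libraries, so its fold rests on few counts. IFNL1 reached the 10 counts needed for testing only in the siMic60 libraries, so its being tested depended on its level there. IFNB1 had 7, 11 and 5 counts in siMic60 and 0, 1 and 0 counts in siCTRL libraries, and IFNG, an inducer of class I genes, had no count in any library.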
